A study of Rattus norvegicus with 78 samples.

Results

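The arrays described here are those of the young rats that were trained in the Morris water maze, 19 of the 78 arrays of the series. They were chosen by their group label alone, 5T-Y (n = 10) and 21PT-Y (n = 9). Each array holds the RNA of 1 rat, so that the animal is the replicate. All 19 were male F344 rats, an inbred strain, aged 4 to 6 months. The rats of 5T-Y were killed on day 5, the last day of training, and those of 21PT-Y 21 days after training had ended. RNA of the left hippocampus, taken from its dorsal part only, was measured on an Affymetrix RAE-230A array. The other groups of the series are untrained rats and aged trained rats of 24 to 26 months, which the authors divided into unimpaired (AU, n = 20 over both times) and impaired (AI, n = 19). The question was whether young rats that learned the maze better or worse, or swam faster or slower, differed in hippocampal gene expression.

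In the water maze a rat learns to find a platform hidden under the surface from cues around the pool, a form of spatial memory that depends on the dorsal hippocampus. Learning drives calcium entry through NMDA receptors, kinase signalling and a brief wave of immediate early genes such as Arc and Egr1, and is followed by changes in AMPA receptors and synaptic structure. Transcripts of a dissected hippocampus come from neurons, glia and vessels together, so that less RNA per cell and fewer cells of a type cannot be told apart.

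Per the deposited animal table, 4 measures were used. Latency is the time to reach the platform and swim speed the velocity, both averaged over training days 3 to 5. Dwell in annulus is the time spent at the former platform site in a probe trial of 30 s without the platform, and time in goal quadrant is the share of that trial spent in the quadrant that had held it. A short latency, a long dwell and a high share in the quadrant mark good learning.

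Young rats differed widely among themselves. In 5T-Y the lowest latency was 4.85 s, the median 9.64 s and the highest 24.2 s. In 21PT-Y the same 3 values were 4.62, 10.4 and 19.9 s. Swim speed ran from 19.4 to 31.3 cm/s with a median of 27.6 cm/s in 5T-Y, and from 19.5 to 30.9 cm/s with a median of 24.98 cm/s in 21PT-Y. Dwell in annulus ran from 2.75 to 9.45 s with a median of 6.54 s in 5T-Y, and from 2.75 to 7.34 s with a median of 4.51 s in 21PT-Y. Time in goal quadrant ran from 35.2% to 65.9% with a median of 50.4% in 5T-Y, and from 20.5% to 53.7% with a median of 44.0% in 21PT-Y. The 2 groups overlapped in every measure. In each group 1 rat was far slower to the platform than the rest, replicate 10 of 5T-Y and replicate 2 of 21PT-Y.

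**Figure D1:**
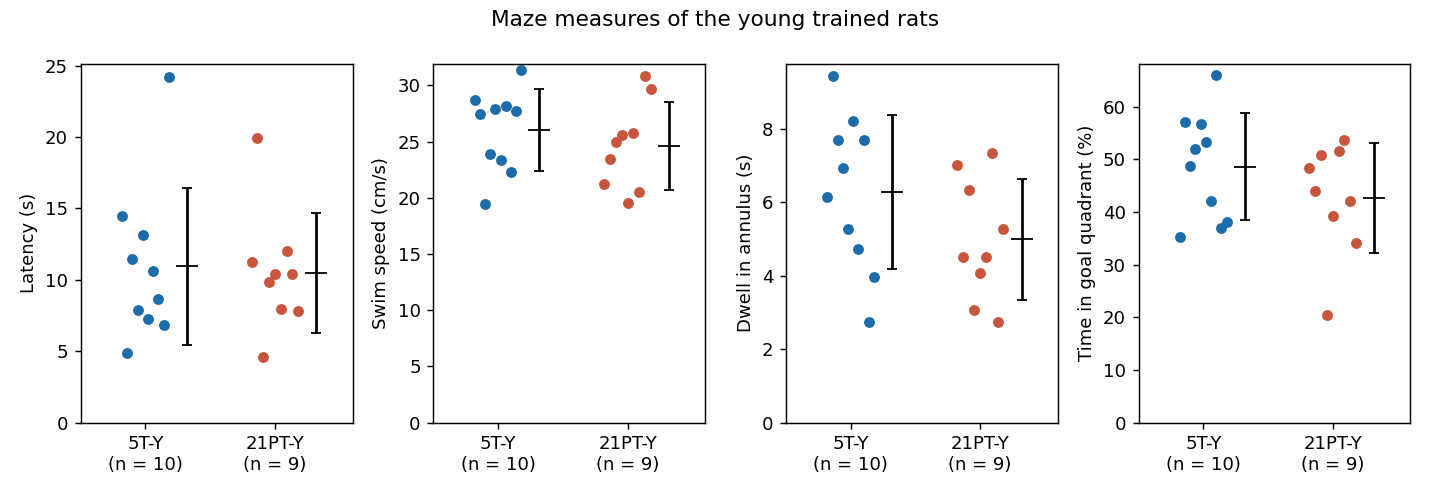
Each point is 1 rat, with latency (s), swim speed (cm/s), dwell in annulus (s) and time in goal quadrant (%) on the vertical axes, and the bars give the mean and SD of 5T-Y (n = 10) and 21PT-Y (n = 9). The groups overlap in all 4 measures, and the highest latencies, 24.2 and 19.9 s, stand apart from the rest.

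No measure differed between the groups beyond the spread between rats. Mean latency was 10.9 ± 5.52 s (SD, n = 10) in 5T-Y and 10.5 ± 4.20 s (SD, n = 9) in 21PT-Y, with an adjusted p of 0.84 (2-sided exact permutation test, adjusted over the 4 measures). Swim speeds of 26.0 ± 3.62 and 24.6 ± 3.92 cm/s gave an adjusted p of 0.559 by the same exact test. Dwell was 6.29 ± 2.09 s in 5T-Y and 4.99 ± 1.64 s in 21PT-Y, and time in the quadrant was 48.6 ± 10.2% and 42.7 ± 10.5%, each with an adjusted p of 0.464 by the exact test.

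The measures were not independent of each other. Of the 6 pairs, 1 passed after adjustment on values and on ranks. Rats that dwelt longer at the platform site also spent more of the trial in its quadrant, with r = 0.658 (permutation p = 0.00297, adjusted p = 0.0178) and rho = 0.665 (permutation p = 0.00365, adjusted p = 0.0219) after the group means were removed. The relation was there in 5T-Y (r = 0.683) and in 21PT-Y (r = 0.637), among rats with the same letter in their animal code (r = 0.797), and without the 2 rats farthest from the median dwell (r = 0.639). Both values come from the same trial.

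For swim speed and dwell r was -0.546 (permutation p = 0.0187, adjusted p = 0.0561) and rho was -0.581 (permutation p = 0.0138, adjusted p = 0.0414), and without the 2 rats farthest from the median speed r was -0.63. This relation leaned on 1 deposited value. The file header defines velocity as path over latency, and 18 of the 19 rats fit that within 0.05 cm/s. For 5T-Y replicate 10 the table gives 31.3 cm/s, while its path of 521 cm over 24.2 s comes to 21.6 cm/s. With speed computed from path and latency in every rat, r was -0.373 (permutation p = 0.119, adjusted p = 0.289). Which of the 2 speeds is right is not given in the sources used here. Speed and time in goal quadrant had r = -0.432 (permutation p = 0.0742, adjusted p = 0.148). Latency was not related to any of the others past the threshold (adjusted permutation p from 0.273 to 0.529).

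Markers of the labelled tissue were measured on every array. Of the fixed hippocampal and neuronal markers on the array, all 3 of dentate granule cells (Prox1, Dsp and Calb1), all 3 of pyramidal cells (Wfs1, Nnat and Grik4) and all 5 of interneurons passed the filter on dim probe sets. Of markers of the thalamus, striatum and cortex that adjoin the hippocampus 3 of 4 also passed, Tcf7l2, Prkcd and Rgs9, with mean log2 levels of 7.91, 8.18 and 8.26, and Drd2 did not. Their summed signal lay between 852.7 and 1293 intensity units, and their part in the results was not tested. The filter was also passed by all 6 of myelin and all 5 of astrocytes. Of choroid plexus markers 3 of 5 passed, Kl and Kcnj13 did not, and Ttr, the main choroid transcript, had log2 levels from 6.67 to 9.01. The median over an array's probe sets ranged from 228.4 to 252.5 in intensity, and how precise a slope can be depends on there being 19 arrays. Array quality was set against each measure in 20 relations, of which none passed after adjustment (smallest adjusted permutation p = 0.353). Those with the smallest permutation p were dwell in annulus with scan day in order (r = -0.462, rho = -0.415, permutation p = 0.056 and 0.0882), time in goal quadrant with the 3' over 5' ratio of beta-actin (r = 0.442, rho = 0.467, permutation p = 0.0627 and 0.0541) and swim speed with that of Gapdh (r = -0.451, rho = -0.228, permutation p = 0.0674 and 0.369). A high ratio marks RNA or labelling that reaches less far from the 3' end.

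Expression was then set against each measure across the 19 rats, with the group as covariate. A slope is the change in log2(signal + 1) per 1 within-group SD of the measure, which was 4.94 s for latency, 3.76 cm/s for speed, 1.89 s for dwell and 10.3 percentage points for the quadrant. Slopes are given ± SE, with intervals of 95%, and p-values are those of limma, adjusted by Benjamini-Hochberg over the 9604 probe sets tested. No gene passed for any measure. For latency the share called was 0% of 9604, with a smallest adjusted p of 1 by limma. For swim speed it was also 0%, with 0.756. For dwell in annulus it was 0%, with 0.997, and for time in goal quadrant 0%, with 0.998.

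Before adjustment, a p under 0.05 was reached by 172 probe sets for latency. Of all tested, 0.812% had a positive and 0.979% a negative slope. Swim speed as deposited had 613 probe sets, with 2.61% positive and 3.77% negative. With speed computed from path and latency the count was 353, of which 211 were among the 613 with the same sign. Dwell in annulus had 333, with 2.09% positive and 1.37% negative, and time in goal quadrant 345, with 1.69% and 1.91%. These shares are the background against which counts of single genes are read below.

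The fits bounded most slopes in log2 units, which is not a bound on how closely a gene followed a measure. The median SE was 0.041 on the log2 scale for each measure. The interval lay within ±0.25 for 96.8% of probe sets for latency, 94.7% for speed, 95.9% for dwell and 95.1% for the quadrant. It lay within ±0.5 for 99.6% to 99.9%. Single rats of a group varied by a within-group SD of 0.168 at the median probe set, and of 0.351 at the 95th percentile. A gene that followed a measure exactly would have a slope about as large as its own SD. Intervals within ±0.25 or ±0.5 therefore do not exclude a close relation.

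Genes that respond to neuronal activity were examined first. Arc, a cytoskeletal protein of active synapses, had log2 levels from 9.42 to 10.17 with a median of 9.72 in 5T-Y, and from 9.73 to 10.26 with a median of 9.84 in 21PT-Y. Rats of both groups overlapped in Arc. Its slope was 0.028 ± 0.044 on latency, -0.017 ± 0.044 on speed, -0.051 ± 0.043 on dwell and -0.064 ± 0.042 on the quadrant. Each of the 4 intervals held 0.

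Egr1, a zinc finger transcription factor of the same wave, ran from 11.05 to 11.47 (median 11.14) in 5T-Y and from 10.79 to 11.41 (median 11.25) in 21PT-Y. Its slopes were -0.042 ± 0.038 on latency, -0.061 ± 0.037 on speed, 0.044 ± 0.038 on dwell and 0.044 ± 0.038 on the quadrant. Each interval held 0. Neither of the 2 probe sets of Fos passed the filter on dim probe sets, and none was tested.

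Bdnf, a neurotrophin released at active synapses, was examined with them. Its log2 levels ran from 7.93 to 8.81 (median 8.47) in 5T-Y and from 7.89 to 8.79 (median 8.41) in 21PT-Y. Its slope on dwell was -0.17 ± 0.060 (interval -0.29 to -0.041), with an unadjusted p of 0.0115 and an adjusted p of 0.997 by limma. As a single gene its r was -0.537 (permutation p = 0.023, adjusted p = 0.706 over the 44 relations of these genes) and rho -0.54. Within groups r was -0.695 in 5T-Y and -0.323 in 21PT-Y, and without the 2 rats farthest from the median dwell it was -0.359. Its slopes on latency (0.11 ± 0.066), speed (0.11 ± 0.065) and the quadrant (-0.11 ± 0.065) had intervals that held 0. The second probe set of Bdnf was too dim to be tested.

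Homer1, a scaffold of the postsynaptic density, was measured by 3 probe sets that passed the filter. The brightest ran from 10.37 to 10.83 in 5T-Y and from 10.28 to 10.63 in 21PT-Y. Its slopes lay between -0.014 ± 0.031 on latency and 0.052 ± 0.029 on the quadrant. A further probe set ran from 10.04 to 10.47 (median 10.21) in 5T-Y and from 9.01 to 9.72 (median 9.45) in 21PT-Y. Every rat of 5T-Y was above every rat of 21PT-Y there, a difference of groups and not of performance that was not tested here. Inside the groups the slopes of this probe set were 0.029 ± 0.046 on latency, 0.011 ± 0.046 on speed, 0.005 ± 0.046 on dwell and 0.032 ± 0.045 on the quadrant. The remaining Homer1 probe set had slopes from -0.14 ± 0.077 on the quadrant to 0.11 ± 0.079 on speed.

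Glutamate receptors and their kinase followed no measure past the threshold. Gria1, an AMPA receptor subunit, ran from 9.05 to 10.09 in 5T-Y and from 9.13 to 9.87 in 21PT-Y. It had slopes of -0.015 ± 0.071 on latency, 0.098 ± 0.068 on speed, -0.090 ± 0.069 on dwell and -0.072 ± 0.069 on the quadrant. Grin1, the obligatory NMDA receptor subunit, had slopes between -0.024 ± 0.038 on the quadrant and 0.013 ± 0.038 on speed. Grin2b, an NMDA subunit that sets channel kinetics, was dim (log2 levels from 6.89 to 7.84) and had slopes from -0.077 ± 0.064 on the quadrant to 0.077 ± 0.064 on speed.

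Camk2a, the calcium and calmodulin dependent kinase of excitatory synapses, showed how probe sets of 1 gene can part. Its brightest probe set lay between 12.23 and 12.58 in all 19 rats, with slopes of 0.017 ± 0.027 on latency, 0.022 ± 0.027 on speed, 0.019 ± 0.027 on dwell and 0.032 ± 0.026 on the quadrant. A dimmer probe set ran from 6.72 to 9.07 and had a slope of -0.26 ± 0.11 on the quadrant (unadjusted p = 0.0327, adjusted p = 0.998 by limma). The 2 disagreed in sign for that measure, and the remaining Camk2a probe set had -0.073 ± 0.049.

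Markers of other cells were examined too. Gfap, the intermediate filament of astrocytes, lay between 12.33 and 12.72 in all 19 rats, and its slopes ran from -0.015 ± 0.028 on the quadrant to 0.034 ± 0.027 on speed. Mbp, a main protein of myelin, lay between 13.18 and 13.73 and had slopes from -0.021 ± 0.037 on the quadrant to 0.055 ± 0.035 on speed. Hbb, the beta chain of haemoglobin, is read by a probe set of a kind that can also bind related globin transcripts. It ran from 10.70 to 11.38 in 5T-Y and from 10.74 to 11.42 in 21PT-Y, with a slope of 0.10 ± 0.047 on the quadrant (unadjusted p = 0.0415, adjusted p = 0.998 by limma). Its r for that measure was 0.040 in 5T-Y and 0.823 in 21PT-Y, and 0.438 over both (permutation p = 0.0702; rho = 0.389).

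Taking the brightest probe set of each, these 11 genes gave 44 slopes on the 4 measures. Of these, 2 had an unadjusted p under 0.05 by limma, Bdnf on dwell and Hbb on the quadrant. None passed a permutation test after adjustment over the 44 (smallest adjusted p = 0.706). For 43 of the 44 the interval lay within ±0.25, the exception being Bdnf on dwell. Here too this bounds the slope in log2 units and not the closeness of a relation.

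**Figure D2:**
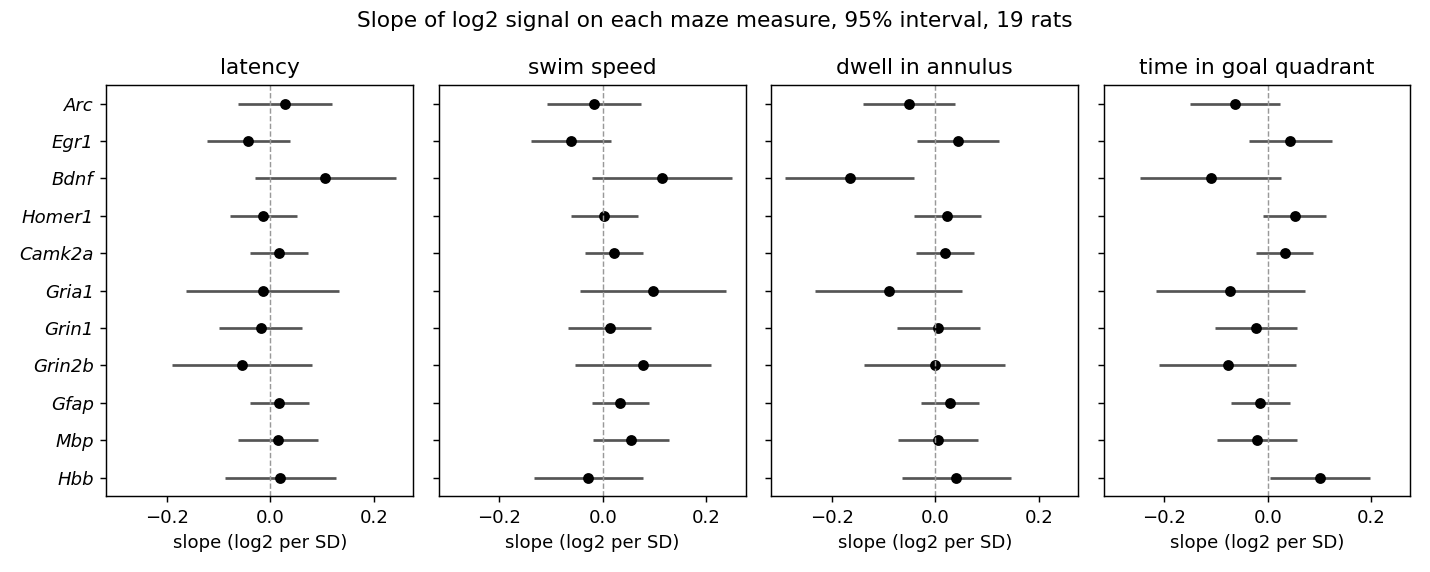
Points give the slope of log2(signal + 1) per within-group SD of each maze measure for 11 genes over 19 rats, and lines its 95% interval. All points lie between -0.17 and 0.11, and the intervals of Bdnf on dwell in annulus and of Hbb on time in goal quadrant are the ones that leave out 0.

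The genes with the smallest p in each direction are given next as values, since none passed. They were picked for their slopes over these rats, so their r, rho and unadjusted p restate that choice. With the replicate number, which marks a shared scan day, as a block, 39 of the 80 leading slopes moved by at least 1 SE and 2 changed sign. For latency the positive end was led by Pla2g6, a calcium independent phospholipase. Its log2 levels ran from 7.87 to 8.64 (median 8.35) in 5T-Y and from 8.21 to 8.62 (median 8.40) in 21PT-Y. The groups overlapped over most of that range. The slope was 0.15 ± 0.038 (unadjusted p = 0.000996, adjusted p = 1 by limma), with rho = 0.846 and r = 0.714, and r = 0.761 without the 2 rats of longest latency. The second probe set of Pla2g6 had the same sign without an unadjusted p under 0.05. F3, the tissue factor that starts clotting, followed with 0.26 ± 0.077, and its r of 0.604 was 0.266 without the same 2 rats.

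At the negative end of latency, the 2 genes of smallest p leaned on 1 rat each. Slc15a4, a lysosomal peptide and histidine transporter, ran from 8.59 to 8.90 in 5T-Y and from 8.12 to 8.99 in 21PT-Y. The lowest value belonged to 21PT-Y replicate 2, the slowest rat of its group. The Slc15a4 slope of -0.13 ± 0.036 ran from -0.18 to -0.069 as each rat was left out, and r went from -0.687 to -0.366 without the 2 slowest rats. In 5T-Y alone, without 21PT-Y replicate 2, the slope was -0.061 ± 0.035 with r = -0.717. Snx21, a sorting nexin, ran from 5.35 to 7.79 in 5T-Y and from 6.50 to 7.66 in 21PT-Y. The value of 5.35 came from 5T-Y replicate 10, the slowest rat of all. The slope of -0.37 ± 0.10 became -0.059 at the weakest when 1 rat was left out, and it was -0.56 in 5T-Y and 0.007 in 21PT-Y. Grp, the gastrin releasing peptide of some excitatory neurons, had -0.22 ± 0.068 with -0.18 in 5T-Y and -0.29 in 21PT-Y, and ran from -0.32 to -0.19 as each rat was left out. Kank2, a regulator of the actin cytoskeleton, had -0.27 ± 0.079 and ran from -0.29 to -0.24. Its r of -0.62 was -0.424 without the 2 slowest rats. Of the 10 leading negative genes of latency 7 had the same sign in both groups, while Snx21, Mea1 and Abcb6 had positive slopes in 21PT-Y. The Mea1 slope of -0.16 became -0.028 at the weakest when 1 rat was left out. For Dnajc6 r went from -0.64 to -0.053 without the 2 slowest rats.

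For swim speed the smallest p of all belonged to Echdc1, an enzyme that removes faulty products of fatty acid synthesis. It ran from 9.78 to 10.44 (median 10.02) in 5T-Y and from 9.59 to 10.46 (median 10.36) in 21PT-Y. Its slope was -0.19 ± 0.042 (unadjusted p = 0.000137, adjusted p = 0.756 by limma), with -0.17 in 5T-Y and -0.22 in 21PT-Y. With recomputed speed it was -0.15 ± 0.050. Snx17, a sorting nexin that returns membrane receptors to the cell surface, had -0.15 ± 0.036. Slc25a25, a mitochondrial carrier of ATP and magnesium, had -0.21 ± 0.052, and Ctss, a lysosomal protease of microglia, -0.15 ± 0.041. With recomputed speed Ctss had -0.098 ± 0.048 (unadjusted p = 0.054 by limma), and 7 of the 20 leading slopes on speed moved by at least 1 SE.

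At the positive end of speed, Dnaja2, a partner of Hsp70, ran from 11.43 to 11.71 in 5T-Y and from 11.42 to 11.72 in 21PT-Y, with a slope of 0.074 ± 0.019 (unadjusted p = 0.000767, adjusted p = 0.756 by limma), rho = 0.818 and r = 0.789. With recomputed speed its slope was 0.050 ± 0.022. Hsp90ab1, a constitutive form of Hsp90, had 0.22 ± 0.059, with r = 0.631 but rho = 0.375 (permutation p = 0.131 for rho). That probe set was not the brightest of Hsp90ab1. The other tested one had the same sign without an unadjusted p under 0.05. The list of heat shock proteins and chaperones did not share these positive slopes. On speed 8 of its 19 slopes were positive, with a median of -0.003 and a highest slope of 0.05. Mlip, a partner of lamin, led this side with 0.12 ± 0.031, and Egln1, the oxygen sensor that marks hypoxia inducible factors for decay, had 0.10 ± 0.028.

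For dwell in annulus the leading gene was Zfp513, a zinc finger protein. It ran from 7.99 to 8.83 (median 8.39) in 5T-Y and from 8.25 to 8.67 (median 8.56) in 21PT-Y. Its slope was 0.14 ± 0.034 (unadjusted p = 0.00032, adjusted p = 0.997 by limma), with r = 0.776 and rho = 0.831. Dcp1b, a cofactor of mRNA decapping, had 0.28 ± 0.070 on dwell and 0.25 ± 0.074 on the quadrant, and was among the 10 leading positive genes of both. Atg5, needed to build autophagosomes, had 0.18 ± 0.048, C1qa, a subunit of the complement starter C1q, 0.14 ± 0.038, and Cryab, a small heat shock protein, 0.086 ± 0.024.

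Fgfbp3, a carrier of fibroblast growth factors, led the negative end of dwell. It ran from 8.61 to 9.21 in 5T-Y and from 8.81 to 9.14 in 21PT-Y, with a slope of -0.12 ± 0.032. Magi3, a scaffold of cell junctions, ran from 8.50 to 8.85 in 5T-Y and from 8.46 to 8.78 in 21PT-Y. It had nearly the same slope on dwell (-0.088 ± 0.025) and on the quadrant (-0.085 ± 0.026). A second Magi3 probe set had the opposite sign. Nr2f1, a nuclear receptor of regional identity, had -0.34 ± 0.097, and Tfrc, the transferrin receptor, -0.29 ± 0.086. The Tfrc slope was -0.375 in 5T-Y and -0.14 in 21PT-Y. That probe set was not the brightest of Tfrc, and the other tested one had the same sign without an unadjusted p under 0.05.

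For time in goal quadrant Zfp512, a zinc finger protein, led the positive end. It ran from 8.86 to 9.42 in 5T-Y and from 8.92 to 9.55 in 21PT-Y, with a slope of 0.14 ± 0.036 (unadjusted p = 0.000789, adjusted p = 0.998 by limma). Eif2s3, a subunit of the factor that brings the initiator tRNA to the ribosome, had 0.17 ± 0.044, with 0.074 in 5T-Y and 0.26 in 21PT-Y. Nr4a3, an immediate early nuclear receptor, had 0.30 ± 0.094, while its other tested probe set had the opposite sign. The negative end held Magi3, B3gat2 (-0.13 ± 0.041), Kcnj3, a subunit of the G protein gated potassium channel (-0.27 ± 0.091), and Aqp4, the water channel of astrocytes (-0.23 ± 0.078). The Aqp4 slope was -0.062 in 5T-Y and -0.40 in 21PT-Y. It was read on a dimmer probe set, with log2 levels from 7.36 to 9.26 in 21PT-Y. A brighter Aqp4 probe set had a mean log2 level of 11.19. Over the brightest probe sets of the 21 tested astrocyte genes, Aqp4 among them, the lowest slope on the quadrant was -0.098. None of those 21 reached an unadjusted p under 0.05 by limma for that measure. B3gat2, a glucuronyltransferase, had also stood among the leading positive genes of speed, with 0.15 ± 0.038. Time in goal quadrant had r = 0.442 with the beta-actin ratio, which some genes of large within-group SD followed too. Rasgrp1 (r = -0.83) and Wdr7 (r = -0.75) had slopes of -0.24 and -0.27 on the quadrant, while Calb2 (r = 0.16) had -0.0001. With the ratio as a covariate 11 of the 80 leading slopes of all measures moved by at least 1 SE, and 0 changed sign. Its part in these slopes was not tested further.

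**Figure D3:**
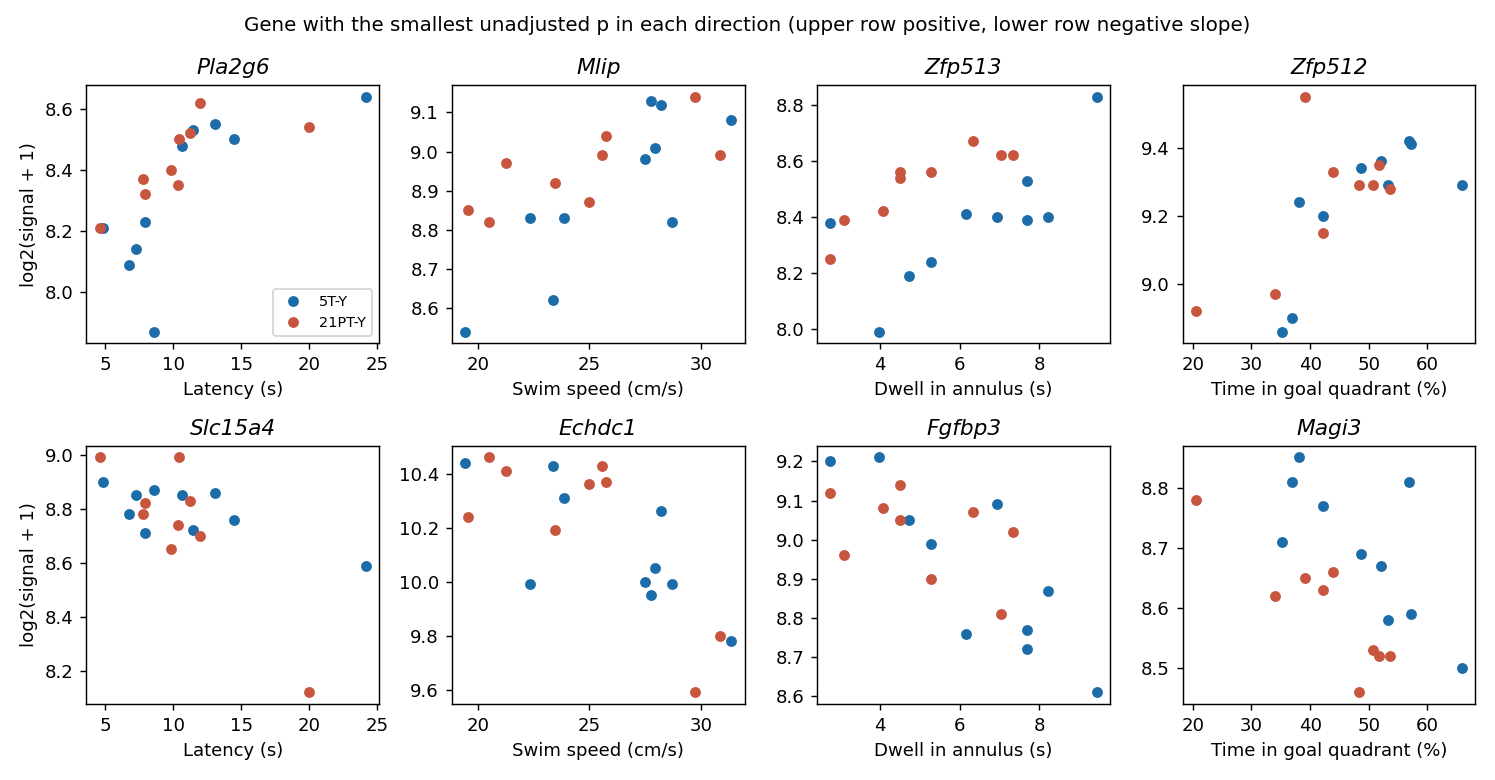
Each panel plots log2(signal + 1) of 1 gene against 1 maze measure, with 1 point per rat, for the gene of smallest unadjusted p with a positive slope (upper row) and a negative slope (lower row). The genes were picked for these slopes, so the visible trends restate that choice. The points of Pla2g6 rise along the range of latency, and the lowest value of Slc15a4, 8.12, belongs to 1 rat of long latency. None of the 8 passed after adjustment.

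Gene lists were read through the brightest probe set of each gene. The 34 lists held 686 genes, of which 445 were tested, and 0 members of any list passed after adjustment. Over the 7029 genes tested, an unadjusted p under 0.05 was found in 1.91% for latency, 5.69% for speed, 3.68% for dwell and 3.1% for the quadrant, and the median slope lay between -0.006 and 0.004.

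Of 20 tested immediate early genes, 0 reached an unadjusted p under 0.05 for latency, 1 for speed, 2 for dwell and 1 for the quadrant. These were Per1, a clock gene (-0.25 ± 0.10 on speed), Jun (0.059 ± 0.023 on dwell) and Nr4a1 (-0.068 ± 0.028 on dwell and -0.072 ± 0.028 on the quadrant). Median slopes of the list were -0.003, -0.031, -0.012 and -0.017. Of 8 neurotrophin and receptor genes, Igf1 reached it for speed (-0.16 ± 0.063), Bdnf for dwell, and Ntf3 (-0.12 ± 0.045) and Igf2 (0.13 ± 0.062) for the quadrant.

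Of 9 AMPA and kainate receptor genes, Grik5 reached it for speed (0.10 ± 0.041) and Gria2, the subunit that limits calcium entry, for dwell (-0.053 ± 0.023). Of 8 NMDA and metabotropic receptor genes 1 did, Grm7 for the quadrant (-0.19 ± 0.085). Among 11 postsynaptic scaffold genes Shank1 had negative slopes on dwell (-0.19 ± 0.077) and on the quadrant (-0.20 ± 0.076), and Dlg1 a positive one on the quadrant (0.059 ± 0.026). None of 14 genes of calcium and calmodulin kinases and calcineurin reached it for any measure, against a background of 1.91% to 5.69%. Among 14 potassium channel genes 2 did for the quadrant, Kcnj3 and Hcn2 (-0.13 ± 0.061). For latency 1 did with a positive slope, for speed 1 in each direction, and for dwell 1 with a negative slope.

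Glial lists were read the same way. Of 15 microglia and complement genes 3 had it with negative slopes on speed, namely Ctss, Cd53 (-0.14 ± 0.052) and Csf1r, the receptor that keeps microglia alive (-0.094 ± 0.037). For dwell 2 had it with positive slopes, C1qa and Ctss (0.13 ± 0.045). For the quadrant 3 did, C1qa (0.12 ± 0.041), Ctss (0.12 ± 0.047) and Fcer1g, an Fc receptor chain (0.053 ± 0.025). The list medians were -0.006 on speed, 0.021 on dwell and 0.012 on the quadrant, against -0.006, 0.003 and 0.004 over all genes. Summed signal of the fixed microglia markers lay between 1832 and 2266 in 5T-Y and between 1744 and 2318 in 21PT-Y, and Cd68 and Itgam were too dim to be tested. The slopes on speed and dwell come from the same rats, in which the 2 measures had r = -0.546 as deposited and -0.373 with recomputed speed, neither past the threshold after adjustment on values.

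Of 21 astrocyte genes 3 had an unadjusted p under 0.05 with positive slopes on speed, Ndrg2 (0.078 ± 0.026), Slc1a3, a glutamate transporter (0.044 ± 0.020), and Clu (0.056 ± 0.027). Of 18 oligodendrocyte and myelin genes 17 had positive slopes on dwell, 1 of them with an unadjusted p under 0.05, Cryab. Their median was 0.021, against 0.003 over all genes. Slopes of genes in 1 list are not independent, so this count of signs is a description. Mag, a myelin adhesion protein, had -0.12 ± 0.042 on speed. Of 15 glucocorticoid and stress responsive genes 3 had it with negative slopes on speed, Per1, Klf9 (-0.098 ± 0.040) and Nr3c2, the mineralocorticoid receptor (-0.084 ± 0.040), and the list median of -0.043 was the lowest of the 34 for that measure. For the quadrant 2 of them had it, Nfkbia (-0.17 ± 0.070) and Sgk1 (-0.13 ± 0.057).

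Transmitter release and signalling lists had members below 0.05 in both directions. Of 19 genes of synaptic vesicles and SNARE proteins, 4 had negative slopes on speed with an unadjusted p under 0.05. These were Sypl1 (-0.15 ± 0.044), the vesicle glycoprotein Sv2a (-0.11 ± 0.034), the fusion ATPase Nsf (-0.083 ± 0.032) and complexin Cplx1 (-0.077 ± 0.037). On dwell Cplx1 had a positive slope (0.096 ± 0.035). On speed the list was split in sign, with 10 positive and 9 negative slopes and a median of 0.002. Of 22 calcium handling genes, 3 had an unadjusted p under 0.05 on the quadrant, with negative slopes, all of them pore subunits of voltage gated calcium channels, Cacna1b (-0.099 ± 0.036), Cacna1a (-0.17 ± 0.067) and Cacna1d (-0.13 ± 0.059). On speed 1 had it, the calcium sensor Hpca (0.084 ± 0.037). Over the list 15 slopes on the quadrant were negative and 7 positive. Of 18 genes of cAMP and CREB signalling, 3 had an unadjusted p under 0.05 on speed, with negative slopes, Pde4b (-0.067 ± 0.028), Atf1 (-0.089 ± 0.040) and Creb1, the transcription factor itself (-0.090 ± 0.043), and Pde4d had it on the quadrant (-0.14 ± 0.067). On speed 7 slopes of this list were negative and 11 positive.

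Metabolic lists were read in the same way. Among 29 genes of oxidative phosphorylation 0 had an unadjusted p under 0.05 for latency, 0 for speed, 3 for dwell and 0 for the quadrant, with medians from -0.01 to 0.009. The 3 were Atp5pb (0.11 ± 0.041), Ndufv1 (-0.081 ± 0.035) and Ndufa5 (-0.098 ± 0.043). Of 18 genes of glycolysis and lactate transport 3 also had it for dwell, Tpi1 (-0.067 ± 0.022), Ldhb (0.071 ± 0.028) and Slc16a7 (-0.14 ± 0.062), and 1 for the quadrant, Slc16a7 (-0.17 ± 0.059). Of 24 cytosolic ribosomal protein genes, 19 had positive slopes on speed, 2 of them with an unadjusted p under 0.05, Rpl7 (0.055 ± 0.024) and Rps24 (0.085 ± 0.040). The median over the list was 0.032, against -0.006 over all genes, and here too the slopes of a list are not independent. Antigen presentation, with 4 tested genes, had the highest list median for latency, 0.068, and none of the 4 reached an unadjusted p under 0.05.

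**Figure D4:**
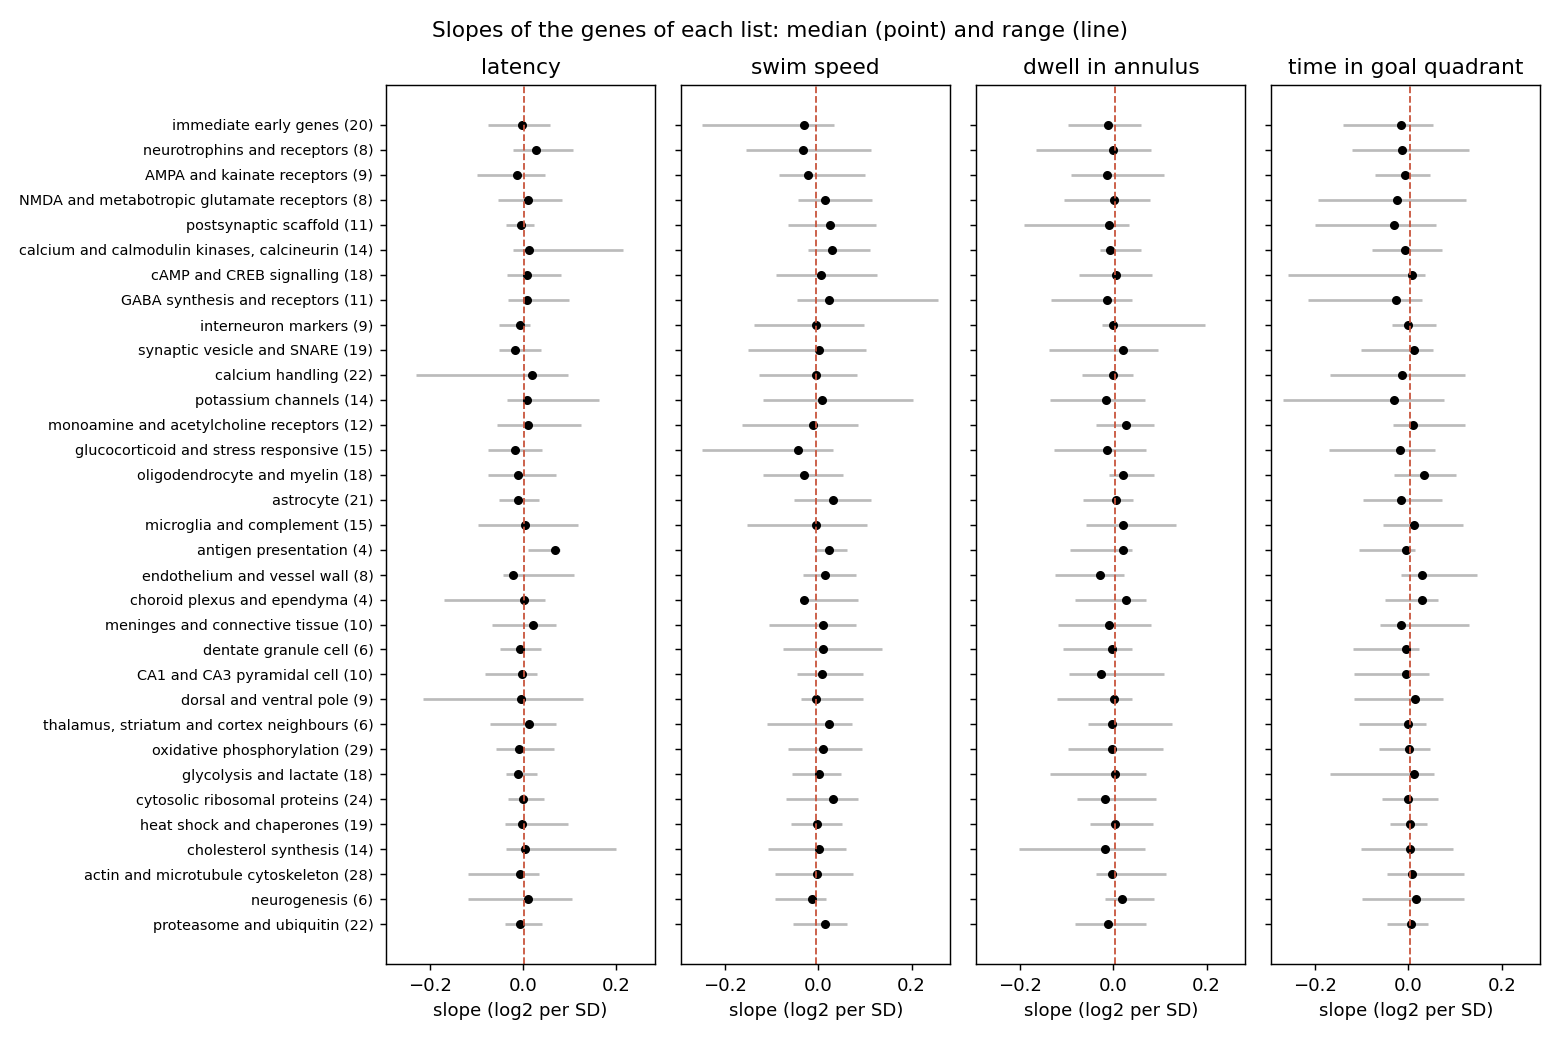
For each list with at least 4 tested genes (number in brackets) the point gives the median and the line the range of slopes in log2 per within-group SD, by maze measure, and the dashed line gives the median over 7029 genes. The medians farthest from the dashed line include antigen presentation on latency (0.068, 4 genes) and glucocorticoid genes on speed (-0.043), and no member of any list passed after adjustment.

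Whether day 5 and day 21 rats differed in their slopes was tested directly. No gene passed. For latency 0% of 9604 probe sets were called, with a smallest adjusted p of 1 by limma and 324 at an unadjusted p under 0.05. For speed it was 0%, with 0.702 and 589. For dwell it was 0%, with 0.901 and 463, and for the quadrant 0%, with 0.916 and 464. These differences were measured with less precision, the median SE being 0.081 to 0.087.

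The genes of smallest p had slopes of opposite sign in the 2 groups. Tbc1d10b, a GTPase activating protein for Rabs, had -0.13 ± 0.053 on latency in 5T-Y and 0.28 ± 0.076 in 21PT-Y, a difference of 0.41 ± 0.097. Med24, a Mediator subunit, had 0.11 ± 0.041 on speed in 5T-Y and -0.17 ± 0.050 in 21PT-Y. Scamp1, a protein of secretory carriers, had 0.063 ± 0.033 on dwell in 5T-Y and -0.18 ± 0.048 in 21PT-Y. Clptm1l had -0.033 ± 0.035 on the quadrant in 5T-Y and 0.18 ± 0.035 in 21PT-Y. The 2 groups share no rat. Over the 9604 probe sets, their slopes correlated with r = -0.205 for latency, 0.127 for speed, -0.019 for dwell and 0.013 for the quadrant, and had the same sign in 43.4%, 51.8%, 49.1% and 47.5%. Probe sets of 1 array are not independent, and these values are a description.

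Slopes in young rats were last set against those in aged trained rats, 20 unimpaired and 19 impaired, in 1 fit over 58 arrays. The SE printed with a young slope is that of the fit of 19 arrays. Those of aged slopes and of differences are from the fit over 58. The aged groups had been formed by performance. Their within-group SD of latency was 2.15 s in AU and 11.3 s in AI against 4.94 s in young rats, and that of speed 2.39 and 1.12 cm/s against 3.76 cm/s. No difference passed. Against AU rats 0% of probe sets were called for latency, 0% for speed, 0% for dwell and 0% for the quadrant, with smallest adjusted p of 0.991, 0.652, 0.999 and 0.999 by limma. Against AI rats the shares were 0%, 0%, 0% and 0%, with smallest adjusted p of 0.408, 0.799, 1 and 0.471. At an unadjusted p under 0.05 there were 404, 341, 348 and 187 probe sets against AU and 208, 451, 316 and 817 against AI.

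For time in goal quadrant against impaired rats, the smallest p belonged to Ctss and C1qa. Ctss had a slope of 0.12 ± 0.047 in young and -0.18 ± 0.047 in impaired rats, a difference of 0.29 ± 0.068 (unadjusted p = 6.73e-05, adjusted p = 0.471 by limma). C1qa had 0.12 ± 0.041 in young and -0.25 ± 0.065 in impaired rats, a difference of 0.37 ± 0.093. For latency Snx21 had the smallest p, with a difference of -0.39 ± 0.087 (adjusted p = 0.408 by limma), and its slope in young rats is the one carried by 5T-Y replicate 10. Egln1 led for speed against unimpaired rats, with 0.10 ± 0.028 in young and -0.12 ± 0.046 in unimpaired rats (adjusted p = 0.652 by limma).

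Technical terms changed which genes stood below 0.05. With the replicate block, over 18 arrays, 21 of the 172 probe sets for latency were still below it with the same sign, 109 of the 613 for speed, 81 of the 333 for dwell and 72 of the 345 for the quadrant. For swim speed with the Gapdh ratio as a covariate there were 221, of which 148 were among the 613 with the same sign, and with chip lot as a term 257, of which 196 were. For time in goal quadrant the actin ratio as a covariate left 234, of which 112 were among the 345. Leaving out the 2 rats farthest from the median raised the counts for the quadrant and for latency. Without 21PT-Y replicate 4 (20.5%) and 5T-Y replicate 8 (65.9%) the count for the quadrant was 1143, with 215 of the 345 among them. Without the 2 slowest learners the count for latency was 551, with 41 of the 172. In each of these fits the number of probe sets called after adjustment was 0.

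**Figure D5:**
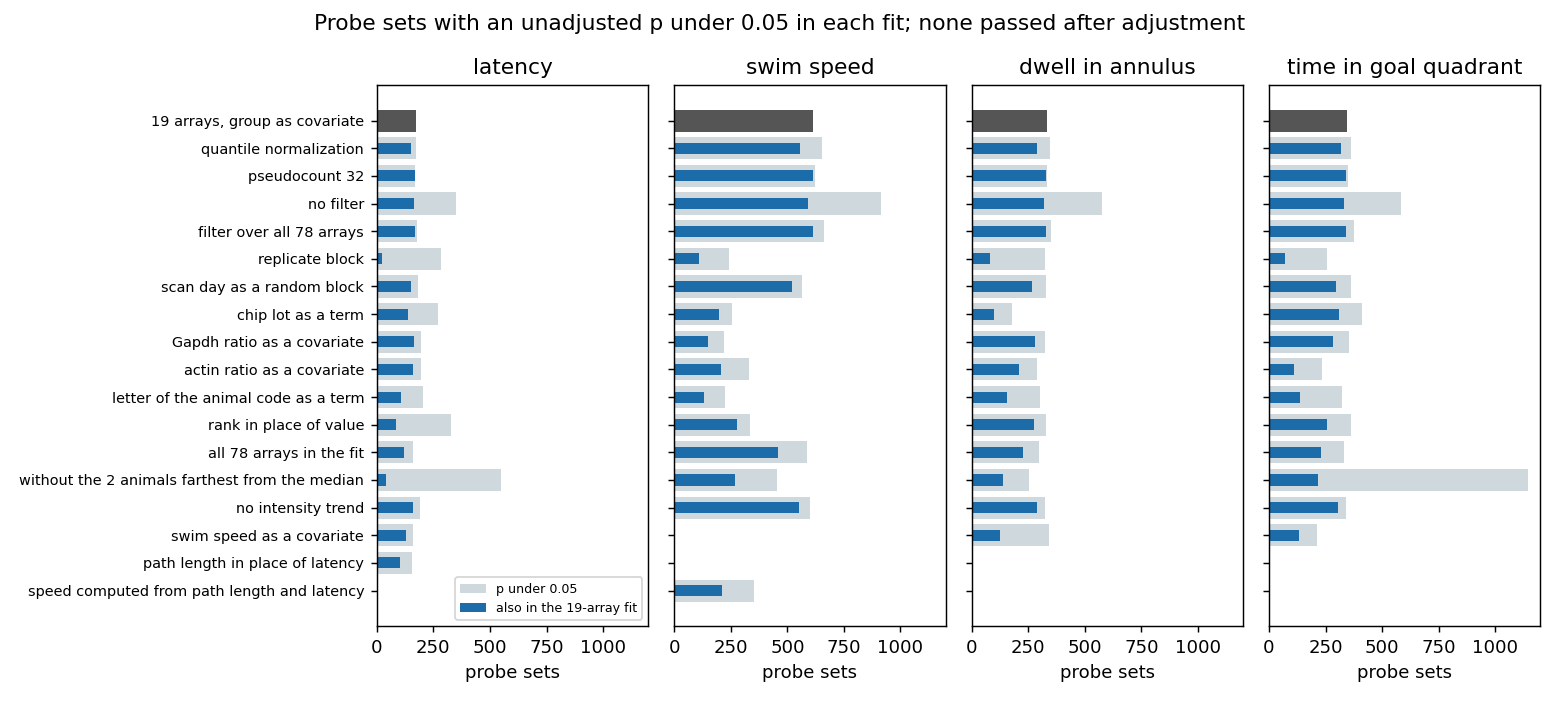
Light bars count the probe sets with an unadjusted p under 0.05 for each maze measure in each fit, and dark blue bars those of them that also had it, with the same sign, in the fit of 19 arrays with group as covariate (dark grey bar). A place with no bar marks a fit that was not run for that measure. The counts range from 155 to 1143, and in every fit shown 0 probe sets passed after adjustment.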

How the data were processed

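The deposited values are the authors' signal intensity on a linear scale. The submitters' processing notes name MAS5 and GCOS 1.1 for them. The build of the probe annotation is not given in the sources used here. Maze measures came from the deposited animal table, in s, cm/s and, for the goal quadrant, percent, as the authors give them in the file header. Array records in the deposit gave each array's scan day and chip lot. Genes were named from the platform annotation, with symbols taken from RefSeq through the gene ID. Of 15866 probe sets other than controls 12783 had 1 symbol, 312 several and 2771 none, and only the first kind was named.

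Probe sets brighter than the array's own 40th percentile on 9 or more of the 19 arrays were tested, 9604 in all, 8078 of them with 1 symbol, from 7029 genes. Log2(signal + 1) was modelled by limma 3.58.1 under R 4.3.3, with lmFit and a trended eBayes, on the group means and 1 maze measure. Adjusted p under 0.05 counted as passing. Slope differences were interaction terms or contrasts of slopes. The fit was tested on simulated data with known slopes.

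Correlations were taken on deviations from the group mean, with 100000 permutations within group, 2-sided, and group means were compared by exact permutation. These used scipy 1.17.1 and numpy 2.4.6 with pandas 2.3.3 in Python 3.11.15, and plots used matplotlib 3.10.9.

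Replicates 1 to 9 of both groups share a scan day, so the number pairs arrays by scan day. Same-numbered arrays deviated together, with r from 0.113 to 0.337 in all 9 pairs, against means of -0.038 to -0.001 with other numbers. For replicates 3, 4, 5 and 7 the own number was not the best match. 5T-Y replicate 10 has no partner and drops out of the blocked fit.

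The rats, gene lists and tests were chosen with earlier results of these data known. Genes were named by a rule: per measure the 10 of smallest p in each direction (none having passed), 12 set genes, up to 4 members of smallest p in each list described, and the 5 of smallest p for each difference of slope. Not every gene the rule names is reported. Rasgrp1, Wdr7 and Calb2 were named outside that rule, from genes of large within-group SD. Alternatives are given in the closing section.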

Additional observations from a re-analysis of the deposited data

Results flagged for a closer look

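In groups of 9 or 10 rats a value was singled out when its gap to the nearest other rat was a large share of the group's range (Dixon's 95% value, which chance passes in about 1 of 20 groups). Of 62 groups of values examined, 5 held such a rat. Latency of 5T-Y replicate 10 was 24.2 s, the next highest in its group being 14.4 s. In 21PT-Y replicate 2 took 19.9 s, the next 12.0 s.

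The same 2 rats stood apart in the genes that led the negative end of latency. Snx21 had a log2 signal of 5.35 in 5T-Y replicate 10, the next lowest being 6.97. Slc15a4 had 8.12 in 21PT-Y replicate 2, the next lowest being 8.65. Both genes had been named for their slope on latency. Gfap had 12.71 in 5T-Y replicate 1, the next highest being 12.49.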

How the results depend on the processing

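In all 16 tests across probe sets the count called was 0, and it was 0 in each of the 157 alternative counts, not all of which were run for every test: quantile normalization, a pseudocount of 32, no filter or one over 78 arrays, scan day as a random block, chip lot, animal-code letter, either RNA ratio, ranks, all 78 arrays, no intensity trend, swim speed as a covariate, path length for latency, adjustment over the 4 measures together, the 2 farthest rats left out, recomputed speed and each rat left out (0 to 0). With the replicate block, which pairs arrays by scan day, 0 passed for each measure and each difference of slope, with 7 residual degrees of freedom for the slopes, and no call changed. Before adjustment it moved counts to 283, 241, 323 and 257 for latency, speed, dwell and the quadrant, from 172, 613, 333 and 345. Before adjustment, leaving out 1 rat moved the count for latency between 152 and 345 (without 21PT-Y replicate 2), for speed between 316 (without 21PT-Y replicate 9) and 958 (without 21PT-Y replicate 6), for dwell between 261 and 487, and for the quadrant between 255 and 854 (without 5T-Y replicate 8). Slopes of the set genes changed sign in 183 of 2397 refits. The number of the 44 set gene relations that passed was 0 on values, on ranks and in either group alone. Of the 6 pairs of maze measures 1 passed on values and 2 on ranks, the second being speed with dwell, and 1 passed with speed recomputed. Recomputed speed, the ranks for maze pairs and the block for slope differences were chosen after seeing the data. With 19 arrays, slopes smaller than their intervals were not detectable.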
